A study of Homo sapiens with 6 samples.

Results

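The genes described here are WNT pathway genes in L3.6pl, a human pancreatic carcinoma cell line of metastatic origin, whose cells were sorted by flow cytometry on surface L1CAM, a neural cell adhesion molecule. The labels call the sorted populations L1CAM_POSITIVE (here L1high) and L1CAM_NEGATIVE (here L1low), with 3 libraries each, all from untreated cells of the same line. The members were taken by symbol: WNT ligands, Frizzled (FZD), LRP and LGR receptors, the SFRP, DKK, KREMEN, DVL, NKD and AXIN families, TCF and LEF1 factors, APC, CTNNB1, RNF43, ZNRF3, PORCN and WLS. They came to 43 of the 19469 genes in the count table, each of which exceeded 1 CPM (counts scaled to a common library total) in at least 2 libraries, and the other 18 of the 61 annotated genes with these names were not analysed here. The populations come from 1 cell line, the labels do not say whether the libraries are separate cultures or sorts, and p-values therefore measure the spread between these libraries, which may be technical.

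WNT ligands are lipid-modified secreted proteins. PORCN adds the lipid, WLS carries the ligand to the surface, and the ligand then binds a Frizzled receptor together with LRP5 or LRP6. Without a ligand, a complex with AXIN and APC marks beta-catenin (CTNNB1) for destruction. With a ligand, DVL proteins block that complex and beta-catenin enters the nucleus, where it binds TCF and LEF factors at genes such as AXIN2. The ubiquitin ligases RNF43 and ZNRF3 remove Frizzled receptors from the surface, and R-spondins acting through LGR4, LGR5 and LGR6 protect them. RNF43 is recurrently mutated in pancreatic tumors, where some lines depend on their own WNT ligands, and WNT7B is one of the ligands described there.

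Sorting followed the marker. L1CAM stood at 84.0, 69.8 and 89.5 CPM in L1high replicates 1, 2 and 3 and at 17.7, 23.7 and 20.0 CPM in L1low replicates 1, 2 and 3. Total counts ran from 16334610 to 21064685 per library, so 1 count corresponded to between 0.0475 and 0.0612 CPM before scaling. The 43 members together held between 0.126% and 0.142% of a library. The study's own comparison left out L1high replicate 3, for which the sources used here give no reason, and the values below come from the other 5 libraries, with all 6 beside them where the call differs. Log2 fold changes are L1low over L1high, and a gene was called at an adjusted p under 0.05 in edgeR. The epithelial markers EPCAM, CDH1, KRT8, KRT18 and KRT19 were present in every library, at 75.2 CPM or more, although EPCAM fell in L1low cells (log2 fold change -0.37) and KRT19 rose (0.69). Of 6 fibroblast markers, COL3A1 lay at or below 2.20 CPM and 4 were not analysed here, while LUM rose in L1low cells from 82.9 ± 6.13 to 142 ± 11.3 CPM (SD, n = 3 each). CD68 and PECAM1, of the immune and endothelial lists, lay between 8.42 and 14.7 CPM and were not called. The part of such cells in the results below was not tested, and fewer cells of a kind cannot be told apart from less RNA per cell in bulk libraries.

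Of the 43 members, 5 were called over the 5 libraries, and all 5 were higher in L1low cells: the ligands WNT7B, WNT3A and WNT9A, the receptor FZD5 and the secreted protein DKK3. This is 11.6% of the members, against 7.57% of all genes tested called in either direction, 4.41% higher and 3.15% lower. Over all 6 libraries the same 5 genes were called higher and FZD10 was called lower, against 7.95% of all genes in either direction, 4.58% higher and 3.37% lower. Read against that background, the number of calls is not in itself a result about the family, and the description that follows concerns single genes. At an unadjusted p under 0.05, 18 of the 43 members passed, beside 4535 of all 19469 genes. The median log2 fold change of the members was 0.09 over the 5 libraries and 0.04 over all 6, near that of all genes (0.002 and -0.009). In 18 members the L1high and L1low libraries did not overlap, 14 with L1low above and 4 with L1low below, while among all genes the shares were 28.8% in either direction, 15.2% above and 13.7% below. The count of calls rose to 8 without L1low replicate 1, where LGR4, RNF43 and WNT7A were added, and to 8 without L1low replicate 3, where KREMEN1, TCF7L1 and TCF7L2 were added.

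**Figure D1:**
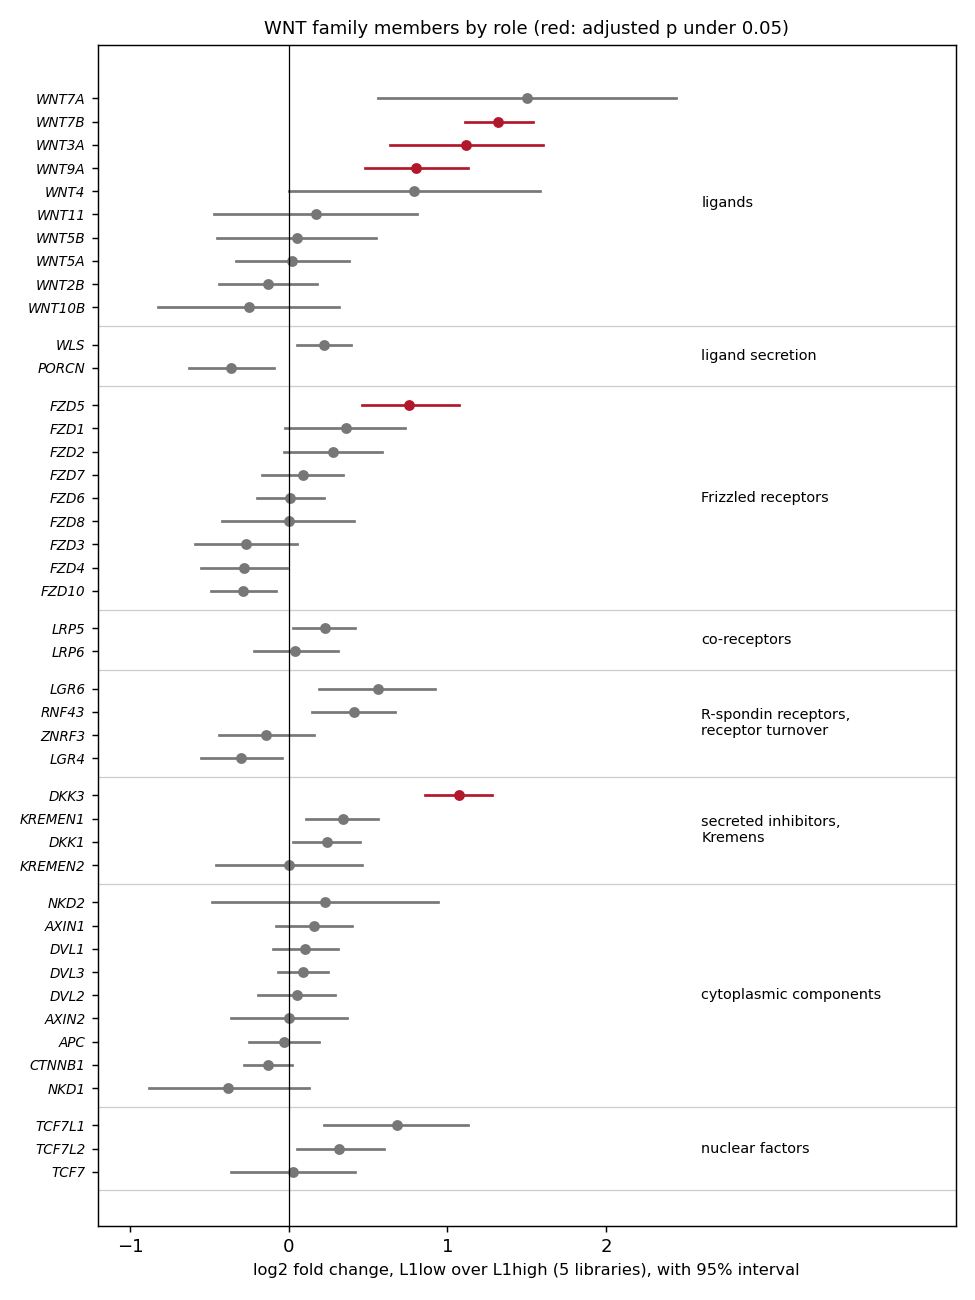
Log2 fold change of each of the 43 members, L1low over L1high over the 5 libraries (x axis), with its 95% interval (line), grouped by role; red marks an adjusted p under 0.05. The 5 called members lie between 0.76 and 1.32, and the intervals of the cytoplasmic components all include 0.

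The promoters of the called members on file are shown because the ligands WNT9A and WNT3A lie side by side and rose together. Their genes are neighbours on chromosome 1 of GRCh38 and point away from each other, with 59066 bases between the annotated starts and no counted gene in between. RefSeq promoters (GRCh38.p14) matched 28 of the 43 members, including WNT9A, WNT3A and FZD5 among the called ones. The 250 bases before each start are given 5′ to 3′ on the strand of the gene. WNT9A is on the minus strand at chr1:227947933-227948182, WNT3A on the plus strand at chr1:228006748-228006997 and FZD5 on the minus strand at chr2:207769907-207770156. Capitals mark the GC box, GGGCGG on either strand.
WNT9A: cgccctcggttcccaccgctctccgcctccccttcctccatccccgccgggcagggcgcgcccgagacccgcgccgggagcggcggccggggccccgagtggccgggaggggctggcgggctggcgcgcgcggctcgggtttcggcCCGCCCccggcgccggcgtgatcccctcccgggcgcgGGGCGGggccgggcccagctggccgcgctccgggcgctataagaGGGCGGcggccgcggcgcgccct
WNT3A: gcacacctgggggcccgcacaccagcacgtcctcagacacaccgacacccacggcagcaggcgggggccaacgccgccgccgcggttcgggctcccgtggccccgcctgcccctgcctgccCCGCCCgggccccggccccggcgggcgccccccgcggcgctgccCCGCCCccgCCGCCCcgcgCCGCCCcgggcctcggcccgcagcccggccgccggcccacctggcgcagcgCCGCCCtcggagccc
FZD5: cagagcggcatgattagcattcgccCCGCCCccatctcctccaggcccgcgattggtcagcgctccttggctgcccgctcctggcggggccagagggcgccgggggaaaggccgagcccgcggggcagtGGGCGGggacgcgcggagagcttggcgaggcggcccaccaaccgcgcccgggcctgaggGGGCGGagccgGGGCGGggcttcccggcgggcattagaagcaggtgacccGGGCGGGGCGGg
All 3 sequences are rich in G and C (84.4%, 86.0% and 76.8%, against a median of 58.0% over all 35093 promoters and 64.8% over the members' promoters). They hold 3, 5 and 6 matches to the GC box, overlapping matches counted, and 42.6% of all promoters of this length hold at least 1. The TCF core CTTTGA and the AP-1 letters TGANTCA, searched on both strands, have no match in these windows, and 11.2% and 6.57% of all promoters hold them. Among the 40 promoter entries of the members, the TCF core was found for DKK1 and PORCN and the AP-1 letters for RNF43. A match is a description of the letters, and the counts of reads do not show which start was used.

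Among the ligands, the largest called rise was that of WNT7B (ENSG00000188064, minus strand of chromosome 22 from 45920366 to 45977162), an epithelial ligand that signals through beta-catenin. Its level was 23.9, 21.9 and 24.2 CPM in L1high replicates 1, 2 and 3 and 58.8, 57.8 and 54.4 CPM in L1low replicates 1, 2 and 3. Every L1low library lay above every L1high library, and the libraries of a group lay close together. The raw counts were 507, 450 and 397 in L1high cells and 1069, 1038 and 964 in L1low cells. The rise was 2.50-fold (log2 fold change 1.32, standard error 0.10, adjusted p = 5.7e-06 in the edgeR quasi-likelihood test). WNT7B ranked 25 by p among the 19469 genes, and 16 over all 6 libraries. Under the 13 other settings its log2 fold change stayed between 1.25 and 1.36, and it was called in each.

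WNT9A (ENSG00000143816, chromosome 1 from 227918656 to 227947932), a ligand known from joint and blood stem cell development, stood at 6.27, 5.84 and 6.03 CPM in L1high cells and at 10.1, 10.0 and 11.5 CPM in L1low cells. The groups did not overlap, and the L1high libraries were nearly equal. On the log2 scale it rose by 0.80 (standard error 0.15), with an adjusted p of 0.0057 in edgeR. WNT3A (ENSG00000154342, chromosome 1 from 228006998 to 228061271), the classical activator of beta-catenin, stood at 3.39, 2.68 and 3.78 CPM in L1high cells and at 6.44, 8.02 and 5.25 CPM in L1low cells, on counts of 55 to 144 per library. The groups again did not overlap, and L1low replicate 2 was the highest library. On the log2 scale WNT3A rose by 1.12 (standard error 0.22), with an adjusted p of 0.0088 in edgeR. Without L1low replicate 2 it was 0.95 with an adjusted p of 0.057 in edgeR, so the call of WNT3A was lost. In that setting the genes called fell from 1473 to 551, while WNT7B, WNT9A, FZD5 and DKK3 stayed called. Why the call of WNT3A was lost was not tested. The nearest counted protein-coding genes on either side of the pair, JMJD4 (log2 fold change -0.02) and ARF1 (-0.10), were not called.

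WNT7A, the closest relative of WNT7B, had the largest fitted log2 fold change of the family (1.5, 95% interval 0.56 to 2.44) but missed the threshold (adjusted p = 0.054 in edgeR). It rested on 7, 11 and 14 counts in L1high cells and on 17, 21 and 28 in L1low cells. Its standard error of 0.43 was the largest of the ligands. Without L1low replicate 1 it was called. WNT7A lay at 0.33, 0.535 and 0.853 CPM in L1high cells and at 0.936, 1.17 and 1.58 CPM in L1low cells. It thus exceeded 1 CPM in L1low libraries only, and entered the counted genes through them. That condition favours a rise, so neither its rank in the family nor that call is read as a result. WNT4, at 13 to 31 counts per library, had a log2 fold change of 0.79 (adjusted p = 0.22 in edgeR), and L1high replicate 3, left out of that fit, lay above all L1low libraries. WNT5A and WNT5B, ligands mostly of beta-catenin-independent signaling, had log2 fold changes of 0.02 (95% interval -0.33 to 0.38) and 0.05 (-0.45 to 0.55). WNT11 (0.17), WNT2B (-0.13) and WNT10B (-0.25) were not called either. Of these 5 ligands, WNT11 had the widest 95% interval, from -0.47 to 0.81. WNT2B shares 21.5% of its exon bases with ST7L on the opposite strand, and its level is uncertain unless strand was used in counting.

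Scaled to exon length, WNT7B was also the most abundant ligand transcript. Its level was 4.59 CPM per kb of exon in L1high cells and 11.2 in L1low cells (means of 3 libraries), ahead of WNT9A (1.51 and 2.63), WNT3A (1.10 and 2.19) and WNT5A (1.23 and 1.32). The summed level of the 10 ligands was 12.3, 11.1 and 12.8 CPM per kb in the L1high libraries and 21.2, 21.8 and 19.9 in the L1low libraries. WNT7B supplied 38.2%, 38.7% and 37.3% of this sum in L1high cells and 54.7%, 52.1% and 53.8% in L1low cells. Without WNT7B, the sum of the other 9 was 7.6, 6.83 and 8 CPM per kb in L1high cells and 9.59, 10.4 and 9.21 in L1low cells. The ligand pool was thus larger in each L1low library, and its share from WNT7B was larger as well. The sum of the other 9 includes WNT9A and WNT3A, which were called higher. Of the rest, WNT5A, WNT4 and WNT7A had higher means per kb in L1low cells, and WNT11, WNT10B, WNT5B and WNT2B had lower ones. The larger pool is therefore not a result beyond the 3 called ligands. These levels use the annotated exon length, and the aligner used by the study does not place reads across splice junctions, so ratios between genes are approximate.

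**Figure D2:**
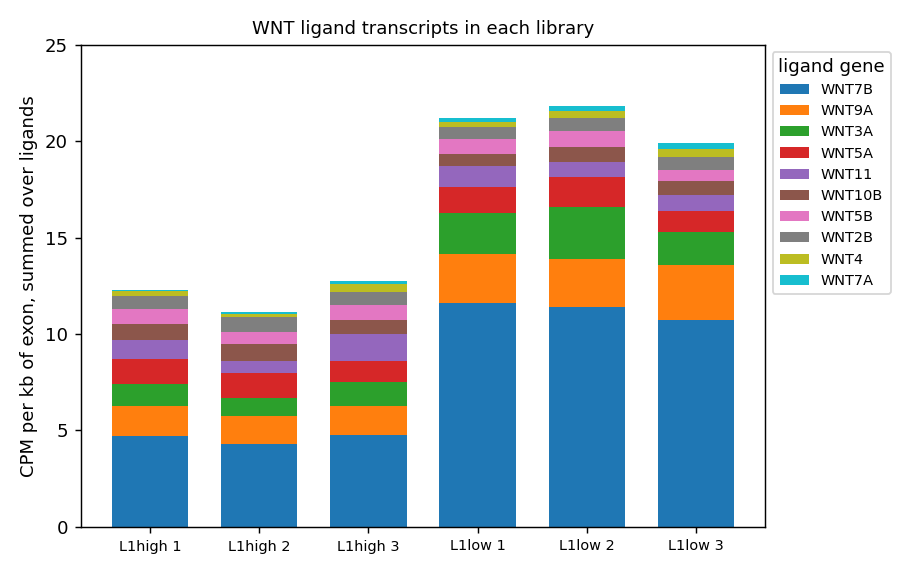
Stacked levels of the 10 WNT ligand genes in each library (x axis, replicates 1 to 3 of L1high and L1low), in CPM per kb of exon (y axis, from 0). The bars reach 11.1 to 12.8 in L1high and 19.9 to 21.8 in L1low libraries, and WNT7B is the lowest segment.

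The 2 genes of ligand secretion differed in opposite directions, and neither was called. WLS, the carrier of WNT ligands, stood at 107, 99.9 and 105 CPM in L1high cells and at 116, 126 and 117 CPM in L1low cells (log2 fold change 0.22, adjusted p = 0.12 in edgeR). PORCN, the acyltransferase that adds the lipid, stood at 14.4, 15.2 and 14 CPM in L1high cells and at 10.7, 12.1 and 11.6 CPM in L1low cells (log2 fold change -0.36, 95% interval -0.63 to -0.09, adjusted p = 0.11 in edgeR). In both genes the groups did not overlap. Per kb of exon, WLS was second among all 43 members at 25.1 CPM per kb, after CTNNB1 at 29.3.

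Of the 9 Frizzled receptors counted, FZD5 was called higher in L1low cells. FZD5 (ENSG00000163251, chromosome 2 from 207762598 to 207769906) is a receptor for beta-catenin signaling in gut and pancreatic epithelium. Its level was 8.96, 7.69 and 9.14 CPM in L1high cells and 15.1, 14.2 and 12.9 CPM in L1low cells, with no overlap. FZD5 rose by 0.76 on the log2 scale (standard error 0.14), with an adjusted p of 0.0057 in edgeR, and FZD5 was called in each of the 13 other settings (0.64 to 0.82). The nearest counted protein-coding genes by start, CCNYL1 (-0.21) and PLEKHM3 (0.25), were not called.

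FZD10 was the most abundant Frizzled transcript per kb of exon and went the other way. It stood at 53.5, 49.2 and 50.6 CPM in L1high cells and at 40.8, 44.5 and 40.2 CPM in L1low cells, and the groups did not overlap. Its log2 fold change was -0.29 over the 5 libraries (95% interval -0.49 to -0.08, adjusted p = 0.086 in edgeR) and -0.29 over all 6, where it was called (adjusted p = 0.048). FZD10 made up 45.8%, 44.7% and 44.8% of the summed Frizzled level per kb in L1high cells and 38.8%, 39.7% and 37.8% in L1low cells, while FZD5 went from 3.57%, 3.26% and 3.78% to 6.70%, 5.89% and 5.65%. FZD6 supplied between 18.3% and 21.3% in every library. The sum itself was 35.6, 33.5 and 34.4 CPM per kb in L1high cells and 32.1, 34.2 and 32.4 in L1low cells, which overlap, so the mix of Frizzled transcripts differed between the populations while the sums overlapped.

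The other 7 Frizzled receptors were not called. FZD1 (0.36) and FZD2 (0.28) lay above in all L1low libraries and FZD4 (-0.28) below. FZD6 had a log2 fold change of 0.01 (95% interval -0.20 to 0.22), FZD7 of 0.09 (-0.17 to 0.34), FZD8 of 0.00 (-0.42 to 0.41) and FZD3 of -0.27 (-0.59 to 0.05). FZD4 shares 18.9% of its exon bases with PRSS23 on the opposite strand, a gene with a mean of 244 CPM that was itself called lower (log2 fold change -0.27), so the value of FZD4 is uncertain. The co-receptor LRP5 stood at 103, 88.0 and 111 CPM in L1high cells and at 107, 116 and 110 CPM in L1low cells, and these overlap (log2 fold change 0.23, adjusted p = 0.15 in edgeR). It was the lowest in L1high replicate 2, and with L1high replicate 3 in place of that library its log2 fold change was 0.05. LRP6, at 15.1 to 17.8 CPM, had a log2 fold change of 0.04 (95% interval -0.22 to 0.31).

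**Figure D3:**
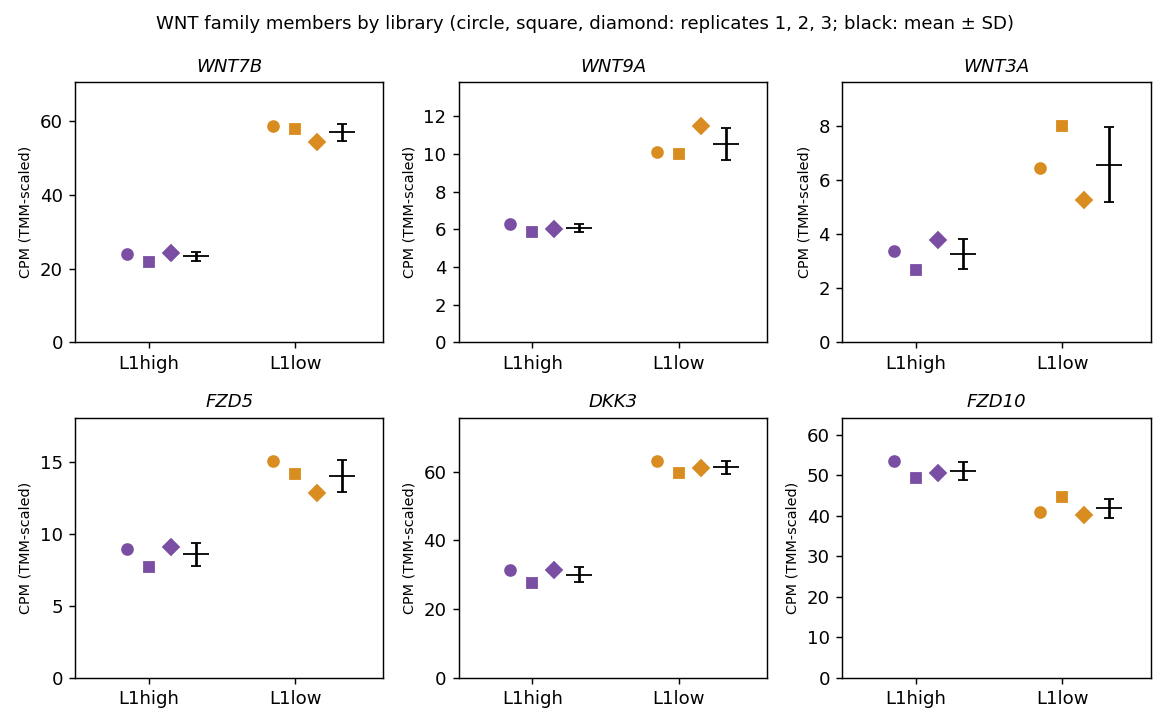
Level of WNT7B, WNT9A, WNT3A, FZD5, DKK3 and FZD10 in each library, in CPM scaled by TMM factors over all 6 libraries (y axes from 0, each on its own scale), with the mean and SD of 3 libraries in black. The L1low points lie above the L1high points in each panel but that of FZD10, where they lie below.

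The secreted inhibitors include the second strongest called rise by p, that of DKK3 (ENSG00000050165, minus strand of chromosome 11 from 11956207 to 12009769), a divergent Dickkopf protein that, unlike DKK1, is not known to bind LRP6. It stood at 31.3, 27.5 and 31.3 CPM in L1high cells and at 63.1, 59.6 and 61.0 CPM in L1low cells. The groups did not overlap, and the libraries within each lay close together. DKK3 rose by 1.07 on the log2 scale (standard error 0.10), with an adjusted p of 2.3e-05 in edgeR, and DKK3 was called in all 13 other settings (0.97 to 1.08). USP47 on the opposite strand covers 47.5% of the annotated exon bases of DKK3, so the level of DKK3 is uncertain unless strand was used in counting. USP47 had 49.1 to 59.6 CPM over the 6 libraries and a log2 fold change of 0.02 (adjusted p = 0.95 in edgeR).

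DKK1, the inhibitor that binds LRP6, was the most abundant of these genes per kb of exon. It stood at 26.4, 28.1 and 25.2 CPM in L1high cells and at 32.3, 32 and 31.8 CPM in L1low cells, with no overlap, but was not called (log2 fold change 0.24, 95% interval 0.03 to 0.45, adjusted p = 0.16 in edgeR). KREMEN1, a DKK receptor that draws LRP6 off the surface, was likewise above in all L1low libraries (33.5 to 36.0 CPM against 25.8 to 30.8) and not called (0.34, adjusted p = 0.069 in edgeR). KREMEN2 had a log2 fold change of 0.00 (95% interval -0.46 to 0.46) and shares 15.3% of its exon bases with PKMYT1 on the opposite strand. PKMYT1 had a mean of 87.7 CPM and a log2 fold change of -0.25, and was called lower over all 6 libraries (-0.32, adjusted p = 0.035 in edgeR). The value of KREMEN2 is therefore uncertain.

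Of the 4 genes of receptor turnover 0 were called over the 5 or all 6 libraries in edgeR, or over the 5 in DESeq2. Among all genes 7.57% were called over the 5 libraries, so this count is not in itself a result. Over the 5 libraries 3 had an unadjusted p under 0.05 in edgeR, a level that 4535 of all 19469 genes passed. LGR4, an R-spondin receptor and the most abundant of the group per kb, stood at 35.0, 37.9 and 33.1 CPM in L1high cells and at 34.1, 27.7 and 26.7 CPM in L1low cells, where L1low replicate 1 lay among the L1high libraries. Its log2 fold change was -0.30 (adjusted p = 0.16 in edgeR), and without L1low replicate 1 it was called (-0.41, adjusted p = 0.038 in edgeR). Its relative LGR6 was above in all L1low libraries (6.85 to 8.64 CPM against 5.14 to 6.34), with a log2 fold change of 0.56 and an adjusted p of 0.064. RNF43 was at 22.2, 18.3 and 23.8 CPM in L1high cells and at 24.8, 27.9 and 27.4 CPM in L1low cells, with no overlap (0.41, adjusted p = 0.055 in edgeR). It shares 68.4% of its exon bases with ENSG00000285897 on the same strand, whose counts were not called (0.12), so the level of RNF43 is uncertain. ZNRF3 had a log2 fold change of -0.14 (95% interval -0.44 to 0.16).

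None of the 9 cytoplasmic components was called over the 5 or all 6 libraries in edgeR, or over the 5 in DESeq2. Over the 5 libraries 0 had an unadjusted p under 0.05 in edgeR. Among all genes 7.57% were called over the 5 libraries, and 4535 of 19469 passed the unadjusted level. With 9 genes, a count of 0 is therefore not in itself a result about these components. CTNNB1, which encodes beta-catenin, stood at 369, 354 and 356 CPM in L1high cells and at 328, 320 and 337 CPM in L1low cells. The L1low libraries were all below, yet the log2 fold change of -0.13 (95% interval -0.28 to 0.02, adjusted p = 0.29 in edgeR) did not pass, and over all settings it stayed between -0.15 and -0.11. The scaffolds APC (-0.03, 95% interval -0.25 to 0.19) and AXIN1 (0.16, -0.08 to 0.40) and the transducers DVL1 (0.10, -0.10 to 0.31), DVL2 (0.05, -0.19 to 0.29) and DVL3 (0.09, -0.07 to 0.25) had intervals within 0.40 of 0. AXIN2, the most widely used readout of beta-catenin activity, stood at 6.18, 5.65 and 5.79 CPM in L1high cells and at 5.28, 6.07 and 6.32 CPM in L1low cells. The groups overlapped, with a log2 fold change of 0.00 (95% interval -0.36 to 0.37, adjusted p = 0.99 in edgeR). The feedback inhibitors NKD1 (-0.38, 95% interval -0.88 to 0.13) and NKD2 (0.23, -0.48 to 0.94) rested on 21 to 80 counts per library, and their intervals are wide. AXIN2 shares 25.3% of its exon bases with ENSG00000266076 on the same strand, whose counts were not called (0.26), so the level of AXIN2 is uncertain.

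Of the nuclear factors, TCF7L2 was the most abundant, at 23.7, 27.6 and 20.3 CPM in L1high cells and 35.3, 32.9 and 27.3 CPM in L1low cells. L1high replicate 2 lay just above L1low replicate 3. TCF7L2 was not called over the 5 libraries (log2 fold change 0.32, adjusted p = 0.15 in edgeR). It was called with L1high replicate 3 in place of L1high replicate 2 (0.53, adjusted p = 0.034 in edgeR) and without L1low replicate 3 (0.42, adjusted p = 0.025 in edgeR). With replicate number as a block over all 6 libraries it was called too (0.42, adjusted p = 0.0079 in edgeR). TCF7L1, mostly a repressor, did not overlap between groups (4.24 to 5.45 CPM in L1low against 2.68 to 3.72 in L1high cells) and had a log2 fold change of 0.68 with an adjusted p of 0.072. TCF7, itself a target of the pathway, had a log2 fold change of 0.03 (95% interval -0.36 to 0.42).

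The other genes of the pathway were taken from 6 lists by function, of which 82 genes that are not members were tested. Of these, 18 were called over the 5 libraries (22.0%, against 7.57% of all genes), 13 higher and 5 lower in L1low cells, and 17 over all 6. Without L1low replicate 2 the number was 8, and with L1high replicate 3 in place of L1high replicate 1 it was 11. The median log2 fold change of the 82 genes was 0.08. The lists were chosen with earlier results of these data known, so the share of calls is not in itself a result about the pathway. Among all genes, 4.41% were called higher and 3.15% lower, and the counts for each list below stand beside these shares.

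Among target genes, 9 were tested, 2 rose and 2 fell. The ephrin receptors EPHB2, at 8.77, 10.1 and 9.26 CPM in L1high cells and 14.4, 14.4 and 14.1 CPM in L1low cells (log2 fold change 0.61), and EPHB3 (0.52) rose. SOX9, a factor of pancreatic duct and progenitor cells, fell from 29.9, 31.4 and 27.9 CPM to 13.6, 17.3 and 13.8 CPM (-1.03, standard error 0.12), and APCDD1, an inhibitor that is also a target, fell from 57.5, 57.5 and 56.3 CPM to 41.1, 38.5 and 36.8 CPM (-0.56, standard error 0.09). The cell cycle gene CCND1 (-0.10, 95% interval -0.25 to 0.06), MYC (0.07, -0.08 to 0.22), the surface glycoprotein CD44 (-0.12, -0.28 to 0.04), the Notch ligand JAG1 (0.09) and BAMBI (-0.24) were not called. Target genes outside the members thus moved both ways. The targets that are members were not called: RNF43 (0.41), DKK1 (0.24), TCF7 (0.03), AXIN2 (0.00), ZNRF3 (-0.14) and NKD1 (-0.38). The levels of RNF43 and AXIN2 are uncertain, as given above.

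Among 12 secreted and surface modulators, 1 rose and 2 fell. The inhibitors SOST, at 2.59, 2.58 and 3.11 CPM in L1high cells and 1.27, 0.891 and 1.30 CPM in L1low cells, and SOSTDC1, at 12.2, 12.2 and 11.6 and at 7.49, 7.19 and 7.23 CPM, both bind LRP5 and LRP6, and both fell (log2 fold change -1.15 and -0.73). IGFBP4, which binds insulin-like growth factors and can block WNT receptors, rose (0.38). The proteoglycan GPC3 was called over all 6 libraries only (1.30, at 0.487 to 1.6 CPM), and it is named after its values were seen. It exceeded 1 CPM only in L1low replicates 1 and 3, and entered the counted genes through them. That condition favours a rise, so the call of GPC3 is not read as a result. RECK and ADGRA2, the partners that make cells respond to WNT7A and WNT7B, were counted in every library and were not called. RECK had a log2 fold change of 0.09 (95% interval -0.30 to 0.48) and ADGRA2 of 0.32 (0.02 to 0.63).

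The list of alternative receptors and planar polarity genes, which act without beta-catenin, had 16 genes tested, of which 5 rose and none fell. Among all genes 4.41% were called higher and 3.15% lower. This list too was chosen with earlier results known, so its count is not read as a result about polarity genes. PRICKLE1, a cytoplasmic polarity protein, went from 1.79, 1.41 and 1.77 CPM to 3.96, 4.01 and 3.78 CPM (log2 fold change 1.29, standard error 0.23, adjusted p = 0.0048 in edgeR). The polarity cadherin CELSR1 went from 93.6, 79.2 and 98.7 CPM to 147, 152 and 143 CPM (0.78, standard error 0.09, adjusted p = 1.6e-04 in edgeR). DAAM1, a formin that links DVL to actin (0.63), the membrane protein VANGL2 (0.50) and the pseudokinase PTK7 (0.46) also rose. Groups without overlap were a condition for naming list genes, so the lack of overlap in these 5 is not further support. The receptors ROR2 (0.04, 95% interval -0.19 to 0.27) and RYK (0.07, -0.16 to 0.30) were not called.

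Among 19 partners of the destruction complex, none rose and SKP1, a subunit of its ubiquitin ligase, fell (-0.41, and -0.34 with an adjusted p of 0.059 over all 6 libraries). SKP1 lies next to TCF7 and shares 210 exon bases with it on the opposite strand. The kinase GSK3B had a log2 fold change of 0.07 (95% interval -0.09 to 0.23). Among 19 nuclear cofactors, PYGO2 (0.42), which binds beta-catenin through BCL9, the acetyltransferase CREBBP (0.37) and the TLE family protein TLE5 (0.27) rose and none fell. TLE5 was not called over all 6 libraries (adjusted p = 0.052 in edgeR). In the cadherin complex, which holds the junctional pool of beta-catenin, 2 of 7 genes rose: CTNNAL1, a relative of alpha-catenin (0.62), and CDH3, or P-cadherin, which went from 224, 209 and 233 CPM to 271, 278 and 278 CPM (0.36). CDH1, or E-cadherin (-0.03, 95% interval -0.20 to 0.14), CTNNA1 (-0.01) and JUP (0.14) were not called.

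**Figure D4:**
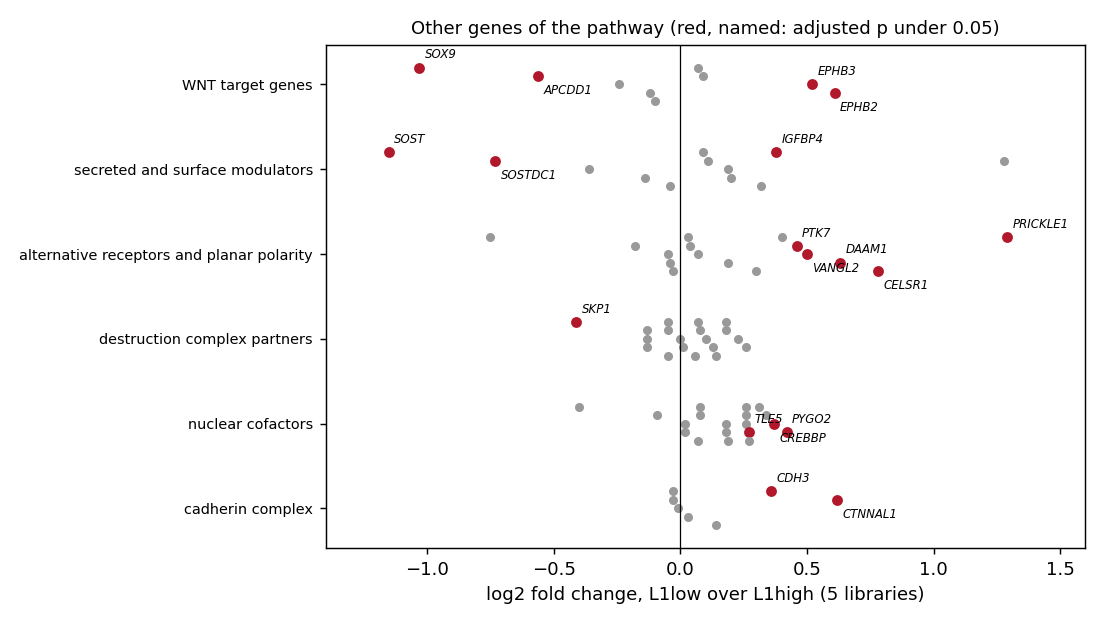
Log2 fold change, L1low over L1high over the 5 libraries (x axis), of the 82 further pathway genes, 1 point a gene, grouped by list (y axis, points shifted within a list to be seen apart). The 18 called genes are red and named, and the 5 called polarity genes lie between 0.46 and 1.29.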

How the data were processed

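RNA of sorted L3.6pl cells (labels also write L6.6pl) gave 3 sequenced libraries each of L1high and L1low cells. The authors deposited raw counts, whole reads for each gene. Per their methods, libraries were stranded, BWA placed read pairs on GRCh38, and featureCounts assigned them to genes of Ensembl release 94. The submitters' processing notes also name DESeq2. Strand settings and versions are not given in the sources used here.

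Symbols, coordinates and exon lengths came from GENCODE release 44, which matched 19344 of 19469 identifiers, and unmatched ones held 0.315% of counts. Counts were fitted over all genes in R 4.3.3 with edgeR 4.0.16 (TMM factors, filterByExpr, quasi-likelihood test, Benjamini-Hochberg adjustment, calls at an adjusted p under 0.05), and DESeq2 1.42.0 was an alternative. The 5 libraries of the study's comparison gave the main values and all 6 were fitted beside them. Standard errors are the log2 fold change over the square root of F. CPM use TMM factors over all 6 libraries. In counts simulated for the 5 libraries and 19469 genes, 200 had a log2 change of 1, of which the fit recovered 178 (89.0%), with 6 false calls among 184. The simulation gave all genes the same spread between libraries, a coefficient of variation of 0.09 beyond counting noise. Most members had smaller changes, and real libraries may differ in other ways, so these figures are not error rates of the calls above. The median standard error of the members was 0.14.

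The members, lists and roles were chosen with earlier results of these data known. Values in every library are given for WNT7B, for members called over 5 or 6 libraries and for the member with the highest level per kb in each role, and other members by shorter values. From the lists, those called are named, up to 5 a list, if they average 1 log2 CPM or more and their groups do not overlap. Genes given beyond this (WNT7A, PORCN, RNF43 and AXIN2 in every library, GPC3, the uncalled list genes, and the neighbouring and overlapping genes) were added after their values were seen. No pair of libraries agreed within sampling noise (lowest chi-square per degree of freedom 3.66).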

Additional observations from a re-analysis of the deposited data

How the results depend on the processing

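The 13 alternatives gave 208 values for 16 results. Of these, 188 led to the same call or stayed close to the main value, 12 moved, 7 gained a call, 1 lost it and 0 reversed. WNT7B, WNT9A, FZD5 and DKK3 were called in every setting, DESeq2 and other scalings included. The call of WNT3A was lost without L1low replicate 2. With 1 library left out, where L1high replicate 3 took the place of L1high replicate 1 or 2 and L1low libraries were dropped from the 5, genes called ran from 551 to 1649 (1473 over the 5 libraries), members called from 4 to 8 (5), and genes of the further lists called from 8 to 20 (18). Genes and list genes called were 551 and 8 without L1low replicate 2 and 674 and 11 with L1high replicate 3 in place of L1high replicate 1. The median log2 fold change of the members ran from 0.00 to 0.16 (0.09). Over all 6 libraries the median of the members was 0.04. Leaving out the low-count filter tests nothing, since it took away no gene over the 5 libraries. The cause of these shifts was not tested. Low counts, as for WNT7A and WNT4, limit what can be seen.

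The replicate numbers are not shown to pair the libraries: deviations of same-numbered libraries from their group means correlated at 0.07, 0.09 and 0.21 across genes, although each library correlated best with its own number. With the replicate block over all 6 libraries, 2363 genes and 8 members were called, LGR6 and TCF7L2 being added to the 6 called without it, and the median of the members was 0.05.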

Other observations

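Of the 43 members, 12 share exon bases with another counted gene in GENCODE, 9 of them with a gene on the opposite strand. Of the called members, DKK3 alone is among them. The nearest counted protein-coding genes had smaller log2 fold changes than the called members beside them, leaving out the pair WNT9A and WNT3A: beside WNT7B, ATXN10 had a log2 fold change of 0.22 over the 5 libraries (adjusted p = 0.093 in edgeR; called over all 6, 0.25, adjusted p = 0.040) and PPARA of 0.20, and beside DKK3, MICAL2 had 0.17. The antisense gene PRKG1-AS1, which shares 10.2% of the exon bases of DKK1, had a log2 fold change of 0.66 (adjusted p = 0.085 in edgeR).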
